A study of Mus musculus with 18 samples.

Results

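The genes described here encode the KAP1 silencing machinery itself. They were listed by name, and each was read in a window of its mm9 gene body with 5 kb on both sides, as annotated by GENCODE. The list held 10 genes, Trim28, Setdb1, Cbx1, Cbx3, Cbx5, Atf7ip, Dnmt1, Dnmt3a, Dnmt3b and Suv39h2, of the 22367 protein-coding genes of that annotation. For each, the positions of KAP1 and SETDB1 in Hepa 1.6 cells and those of acetylated lysine 27 and trimethylated lysine 9 of histone H3 (H3K27ac and H3K9me3) in mouse embryonic fibroblasts (MEFs) were examined. The study asked how KAP1 and its partners act on the clusters of KRAB zinc finger protein genes, and the lists also cover the genes that make the repressors.

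KRAB zinc finger proteins bind DNA and recruit KAP1 (also named TRIM28), a scaffold with no enzymatic activity toward histones. KAP1 brings in the histone methyltransferase SETDB1, which trimethylates H3K9, and heterochromatin protein 1 (HP1), which binds that mark, and DNA methyltransferases can make the silencing lasting. H3K27ac marks active promoters and enhancers, so that the lists distinguish places bound by the repressor, places carrying the repressive mark and places carrying the active mark.

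Peak lists of 6 ChIP-seq libraries were used, with 1 library per condition. Hepa 1.6 is a mouse hepatoma line, used here without modification of Kap1. The MEFs were of C57BL/6 background in the labels and C57BL/6J in the methods, the WT cells carrying loxP-flanked Kap1 alleles that had not been excised and the Kap1 KO cells having lost them. The supplement describes the KO MEFs of its RNA-seq as a stably growing clone kept for many passages, so that clone and genotype cannot be told apart. No list compares WT with KO cells in Hepa 1.6, and KAP1 itself was not mapped in MEFs here.

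The KAP1 list held 13366 peaks with scores from 80 to 3220, the score being the value that the MACS peak caller gives to each peak. All 2957 entries of the SETDB1 list were identical, position and score included, to entries of the KAP1 list, so an entry there marks a KAP1 peak also listed for SETDB1 and carries no score of its own. SETDB1 away from KAP1 peaks would not appear in this list, so a missing entry does not show that SETDB1 was absent. The H3K27ac lists held 36275 peaks in WT and 36436 in Kap1 KO MEFs, of which 27.5% and 21.2% had the same score of 3100, treated below as a ceiling. The H3K9me3 lists held 14425 peaks in WT and 4319 in KO. Read numbers are unknown, the absence of a peak means only that no signal passed the threshold, and without replicates no difference between genotypes could be tested. Among markers of the labelled cells, all 9 fibroblast genes had H3K27ac within 1 kb of a start in both genotypes, against 0 of 4 hepatocyte genes in both, 2 of 12 genes of the other cell types in WT (Krt8 and Pecam1) and 1 of 12 in KO (Pecam1).

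The windows of the 10 genes measured between 16884 and 118437 bp, with a median of 45979 bp against 25427 bp over all protein-coding genes. Those of Trim28 and Cbx3, at 16884 and 23345 bp, were shorter than that median. As a longer window offers more room for a peak, KAP1 and SETDB1 were also counted within 1 kb of an annotated start. Shares carry exact Clopper-Pearson 95% intervals, which account for counting error alone.

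In Hepa 1.6 cells, KAP1 lay at the starts of the HP1 genes Cbx3 and Cbx5 and of Atf7ip. The stretches of DNA upstream of these starts that lie within the KAP1 peaks are shown because they are the sequence under the finding, with the upstream stretch of Trim28, which had no KAP1 peak at its start, for comparison. They were read from the mm9 assembly (NCBIM37) 5′ to 3′ on the strand of the gene, end at the base before the start and hold no annotated exon. Capitals mark CG dinucleotides, the sites of DNA methylation.
Trim28 (chr7:13609201-13609500, plus strand): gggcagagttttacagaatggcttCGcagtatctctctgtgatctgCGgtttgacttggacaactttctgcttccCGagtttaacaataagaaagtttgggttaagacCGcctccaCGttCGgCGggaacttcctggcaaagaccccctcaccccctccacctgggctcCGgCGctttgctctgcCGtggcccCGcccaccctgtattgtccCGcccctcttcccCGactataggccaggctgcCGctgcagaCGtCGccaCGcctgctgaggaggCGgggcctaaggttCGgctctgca
Cbx3 (chr6:51420059-51420358, plus strand): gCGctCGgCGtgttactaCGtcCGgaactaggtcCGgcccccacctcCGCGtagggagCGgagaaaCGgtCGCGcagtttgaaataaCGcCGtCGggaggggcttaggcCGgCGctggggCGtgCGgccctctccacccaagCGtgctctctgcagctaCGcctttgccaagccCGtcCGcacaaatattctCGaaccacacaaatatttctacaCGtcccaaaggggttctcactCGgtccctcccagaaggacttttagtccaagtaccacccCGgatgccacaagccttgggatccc
Cbx5 (chr15:103070248-103070547, minus strand): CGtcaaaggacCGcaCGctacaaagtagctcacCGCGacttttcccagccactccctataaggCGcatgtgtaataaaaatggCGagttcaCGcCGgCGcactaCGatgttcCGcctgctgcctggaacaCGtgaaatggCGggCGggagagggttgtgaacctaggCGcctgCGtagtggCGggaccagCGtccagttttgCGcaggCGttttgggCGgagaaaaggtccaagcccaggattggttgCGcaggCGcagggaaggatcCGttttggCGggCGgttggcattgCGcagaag
Atf7ip (chr6:136467178-136467371, plus strand): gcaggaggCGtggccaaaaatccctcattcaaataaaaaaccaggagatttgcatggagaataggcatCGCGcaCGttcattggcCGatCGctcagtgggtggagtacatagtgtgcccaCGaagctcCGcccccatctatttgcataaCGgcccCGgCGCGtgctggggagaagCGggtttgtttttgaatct

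The stretch of Trim28 held 19 CG dinucleotides, that of Cbx3 27 and that of Cbx5 28, each in 300 bases. The shorter stretch of Atf7ip held 13 in 194 bases. Over the 300 bases upstream of the 5′ end, the 10 genes held between 2 (Dnmt3a) and 28 CG dinucleotides (Cbx5), with a median of 20.0, against a median of 9.0 over 22361 protein-coding genes and 19.0 over the 4224 genes with a KAP1 peak within 1 kb of a start. CG-rich sequence was therefore found with and without KAP1 among the 10 genes, Suv39h2 and Dnmt3b holding 27 and 22 CG dinucleotides without a KAP1 peak. Searched on both strands over the same 300 bases, GGGCGG was found in 7 of the 10 genes and in 40.9% of all, CCGGAA in 3 and in 15.1%, and CCAAT in 4 and in 39.0%. Over the 4224 genes with a KAP1 peak within 1 kb of a start, the shares were 60.8%, 27.5% and 36.5%. These matches are a description of the letters and not of binding.

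Trim28, which encodes KAP1, spans chr7:13609501-13616384 on the plus strand. Its window held 1 KAP1 peak, chr7:13619822-13620478, with a score of 190, above the 149 at the middle of the KAP1 list. This peak lay 3438 bp beyond the end of the gene. It was within 1 kb of a start of its neighbour Chmp2a, which encodes a subunit of the ESCRT machinery. KAP1 was thus not found at any annotated start of its own gene, and the SETDB1 list had no entry in the window, the nearest lying 95215 bp from the gene. The peak falls outside the window when the gene body alone is counted.

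In MEFs, the start of Trim28 carried H3K27ac in both genotypes. The peak reached from chr7:13608239 to 13612316 in WT and from chr7:13608250 to 13612368 in Kap1 KO, with the score of 3100 in both. It covered the same number of exons, the first 3 of 17 of the longest transcript, in both lists. Acetylation at the start therefore did not separate the genotypes at the resolution of these lists. The exons removed in the KO cells are not given in the sources used here, and a peak at the start cannot check the deletion. Peaks within 1 kb of starts of the neighbours Chmp2a and Ube2m also reached the window in both genotypes. That near Chmp2a, where KAP1 lay in Hepa 1.6 cells, had a score of 3100 in WT and 1963.61 in KO. In all, 38.3% of the Trim28 window was under H3K27ac in WT and 39.4% in KO, counting the peaks near the neighbours. These were the highest shares of the 10 genes in both genotypes, but of the shortest window. In bases, 6474 were covered in WT and 6660 in KO, fewer than the 20887 and 18040 of Cbx5.

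**Figure D1:**
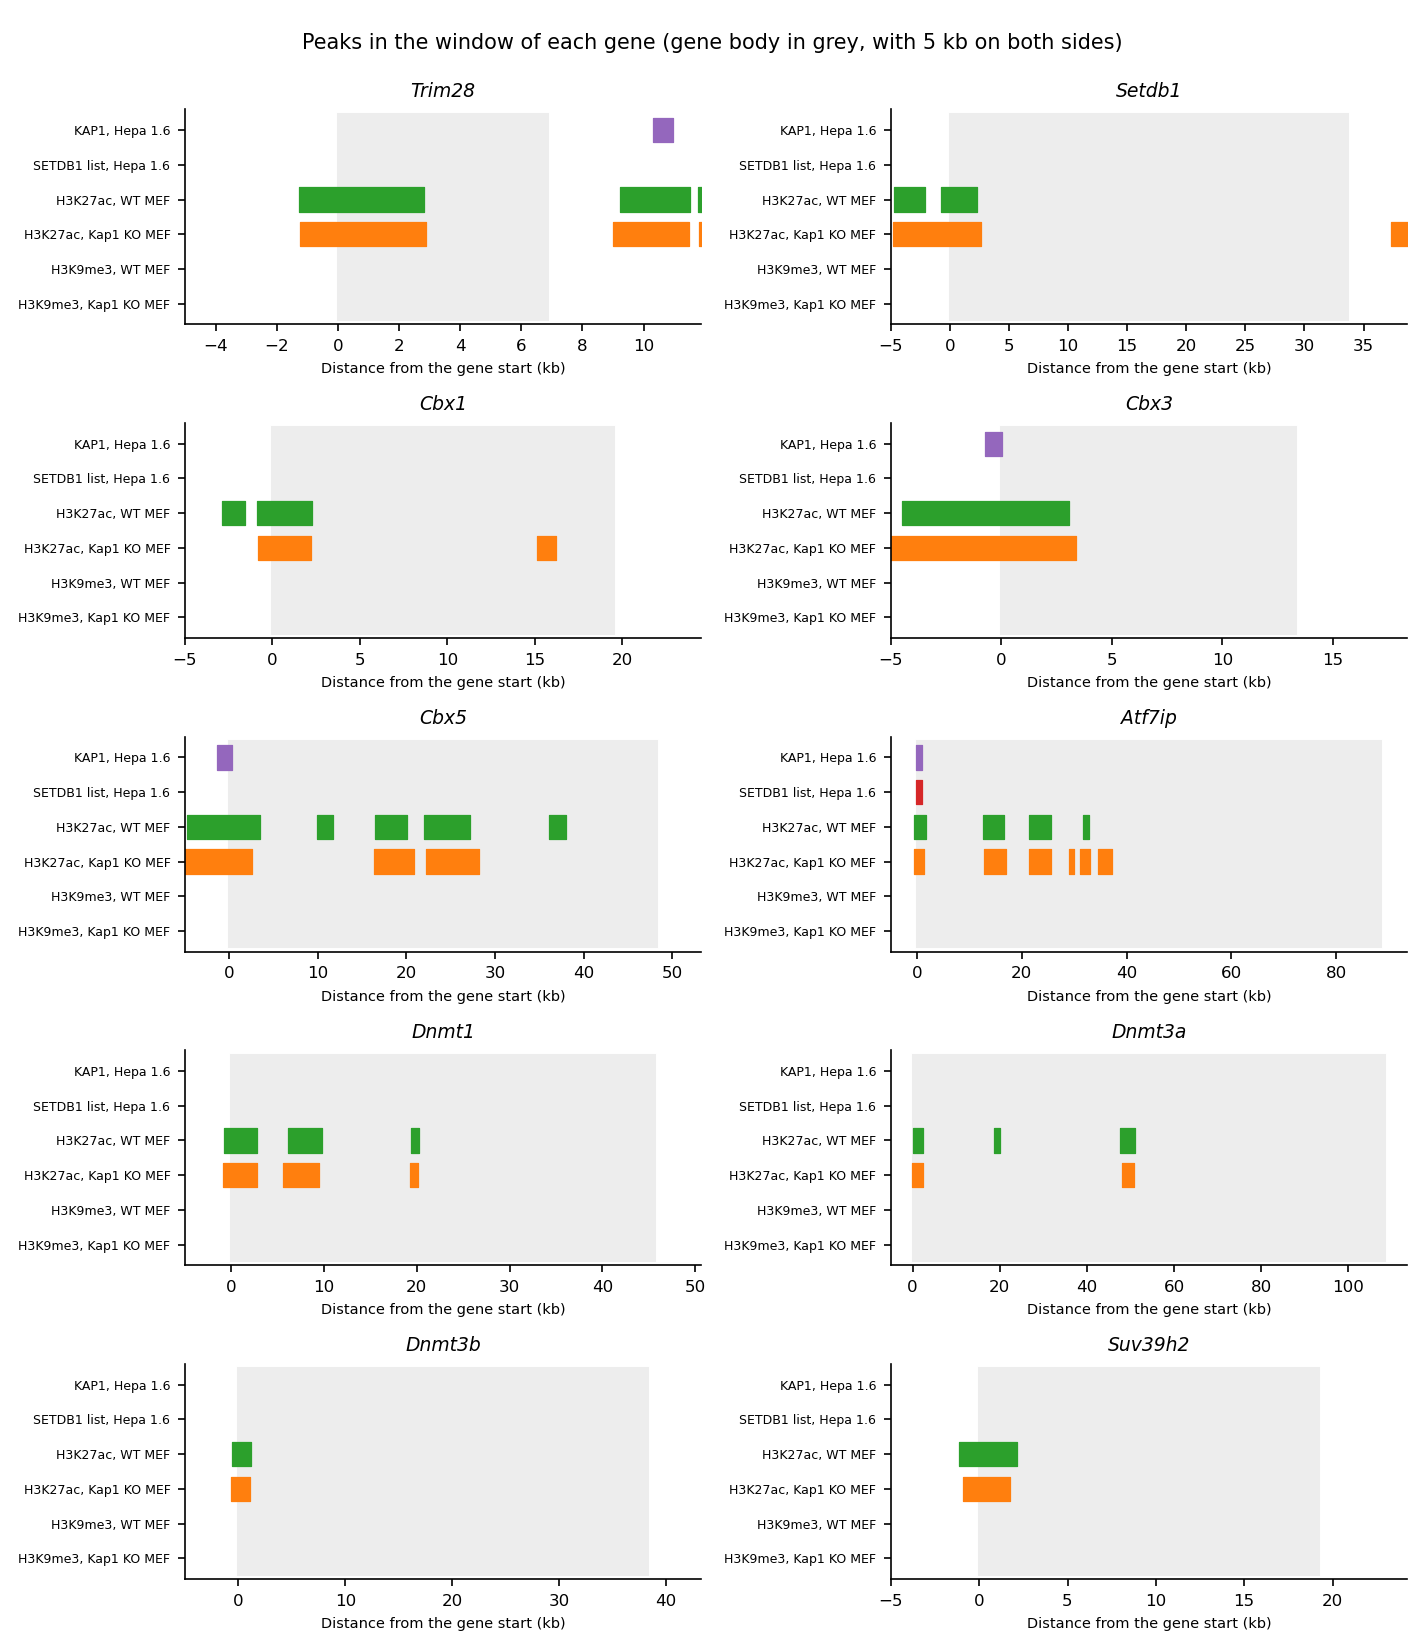
Positions of all peaks in the windows of the 10 genes, 1 panel per gene, by distance from the gene start in kb in the direction of transcription, with the gene body in grey and peaks that leave the window drawn up to its edge. Rows show the KAP1 and SETDB1 lists of Hepa 1.6 cells and the H3K27ac and H3K9me3 lists of WT and Kap1 KO MEFs. KAP1 bars stand at the starts of Cbx3, Cbx5 and Atf7ip and beyond the end of Trim28, H3K27ac bars stand at every start, and the H3K9me3 rows are empty.

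Across the machinery, 4 of the 10 windows held a KAP1 peak (95% interval 12.2% to 73.8%), against 30.7% of all protein-coding genes. Within 1 kb of a start there were 3 of 10 (6.67% to 65.2%), against 18.9% of all genes and 32.3% of the 11622 genes with H3K27ac at a start in both MEF genotypes. Both intervals include the background. With 10 genes chosen by name, they are too wide to tell whether KAP1 was more or less frequent here than at other genes.

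The HP1 genes differed among themselves. Cbx3, which encodes HP1 gamma (chr6:51420359-51433703, plus strand), had a KAP1 peak at chr6:51419599-51420385 with a score of 226, which ranked at percentile 71.0 among the 3905 KAP1 peaks within 1 kb of protein-coding starts. The peak lay in the 465 bases between the start of Cbx3 and that of Hnrnpa2b1, an RNA-binding protein gene transcribed the other way, and over part of both genes. Cbx5, which encodes HP1 alpha (chr15:103021975-103070247, minus strand), had a broader peak at chr15:103069888-103071626 with a score of 355, at percentile 84.2 of the same peaks. It covered all of the 697 bases between Cbx5 and Hnrnpa1, again an RNA-binding protein gene on the other strand. These were the 2 members whose start is shared in this divergent way with another protein-coding gene, and both carried KAP1. Of all 1599 genes with such a start within 1 kb, 41.6% did. Cbx1, which encodes HP1 beta (chr11:96650441-96669954, plus strand), had no KAP1 peak within 96032 bp.

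Atf7ip, whose product binds SETDB1 and keeps it stable in the nucleus, spans chr6:136467372-136555898 on the plus strand. Its KAP1 peak at chr6:136467178-136468236 had a score of 321, at percentile 81.9 of KAP1 peaks at starts. It was the only KAP1 peak of the 10 genes that was also in the SETDB1 list, giving 1 of 10 (0.253% to 44.5%) against 5.47% of all genes in the window and 1.81% at a start. Genes without a KAP1 peak could have no entry in that list. Few KAP1 peaks at starts carried such an entry, 367 of 3905 or 9.4%, compared with 22.1% of the whole KAP1 list.

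The other 6 genes had no KAP1 peak in their window. Setdb1 itself, which encodes the H3K9 methyltransferase (chr3:95127447-95161124, minus strand), came closest, with a KAP1 peak of score 200 at 11823 bp from the gene. The nearest peaks of the DNA methyltransferase genes were farther, 28610 bp from Dnmt1, which encodes the maintenance enzyme, 42291 bp from Dnmt3b and 215232 bp from Dnmt3a, which encode the de novo enzymes. That near Dnmt3a had a score of 1807 and was also in the SETDB1 list. Suv39h2, which encodes an H3K9 methyltransferase of pericentric heterochromatin, had its nearest KAP1 peak at 122493 bp.

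**Figure D2:**
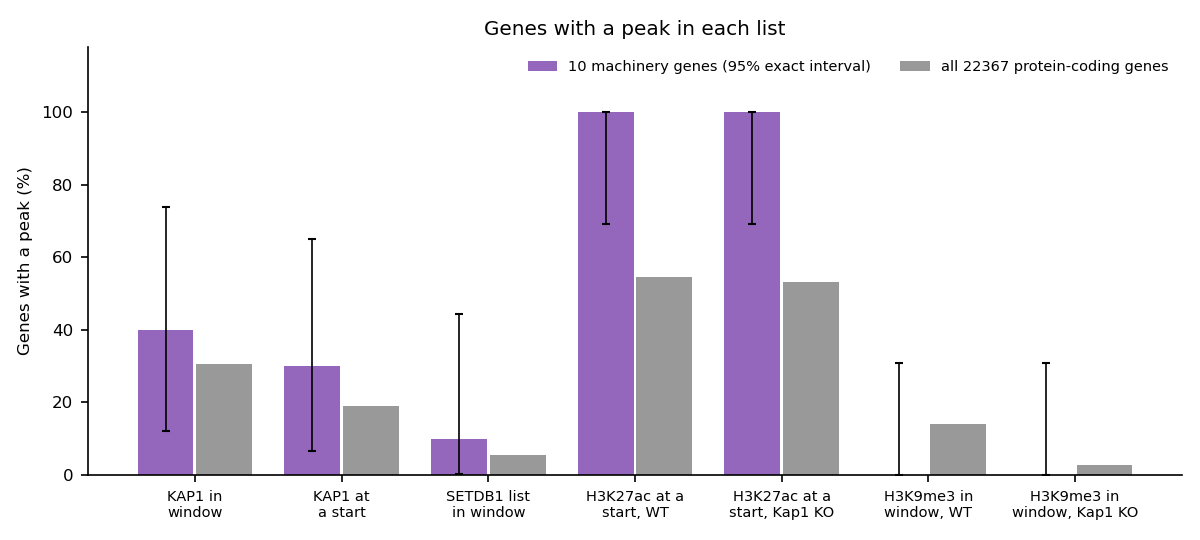
Percent of genes with a peak in each list, for the 10 genes of the machinery (purple, with exact 95% intervals that cover counting error) and for all 22367 protein-coding genes (grey). The bars of the 10 genes stand at 100% for H3K27ac at a start and at 0% for H3K9me3 in both genotypes, and for KAP1 the grey bars lie inside the intervals.

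All 10 genes had H3K27ac within 1 kb of a start in WT MEFs and in Kap1 KO MEFs (69.2% to 100.0% in each), against 54.6% of all genes in WT, 53.3% in KO and 52.0% in both. The active mark was thus present at every gene of the machinery in cells with and without KAP1. The genes with KAP1 at their start in Hepa 1.6 cells were among them, but as KAP1 was read in another cell type, both need not occupy the start in the same cells.

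At 7 genes, Trim28, Setdb1, Cbx1, Cbx3, Cbx5, Dnmt1 and Suv39h2, the start peak had the score of 3100 in both genotypes, which hides any difference above it, as at 6764 or 58.2% of the 11622 genes with a start peak in both. The other 3 had a lower score in KO. The start of Dnmt3b (chr2:153475186-153513466, plus strand) scored 1304.17 in WT and 348.41 in KO, that is 0.267 times the WT score. This peak also lay within 1 kb of a start of 7530422B04Rik, a noncoding transcript, in both genotypes, so its score may not belong to Dnmt3b alone. The start of Atf7ip scored 1915.15 in WT and 807.2 in KO, or 0.421 times. Dnmt3a (chr12:3806007-3914443, plus strand) went from 3100 to 2315.57, or at most 0.747 times, since the WT score stood at the ceiling.

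These lower scores must be read against the rest of the KO list. Of the 11622 genes with a start peak in both genotypes, 35.9% had a lower score in KO, against 3 of 10 here, and 5.89% a higher score, against 0 of 10. Over the 2740 of them with both scores under 3100, so that the ratio is not cut by the ceiling, the median KO score was 0.69 times the WT score, and 9.42% were at or below the value of Dnmt3b and 20.8% at or below that of Atf7ip. Dnmt3a could not be placed among them. A KO score at most 0.5 times that of WT was found at 2 of the 10 genes (2.52% to 55.6%), against 9.23% of all genes with both peaks. A score at least 2 times higher was found at 0 of 10 (up to 30.8%), against 1.71%. Each interval includes the share of all such genes. These shares count ratios cut by the ceiling as they stand. The falls at Dnmt3b and Atf7ip were larger than at most genes whose scores can be compared. The score depends on library depth and on the input as well as on the mark, and the part of these in the lower scores was not tested.

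**Figure D3:**
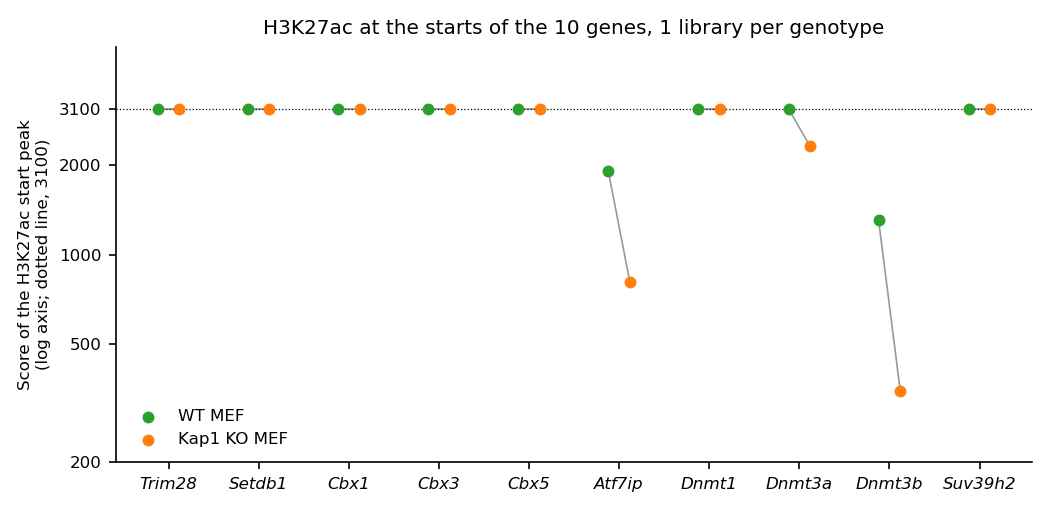
Score of the highest H3K27ac peak within 1 kb of a start for each of the 10 genes (log axis) in WT (green) and Kap1 KO (orange) MEFs, 1 library each. Points of 7 genes lie on the dotted line at 3100 in both, and those of Atf7ip, Dnmt3a and Dnmt3b are lower in KO.

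Away from the starts, H3K27ac differed at a few places. A WT peak without any overlapping KO peak was found in 3 of 10 windows (6.67% to 65.2%), against 16.8% of all genes, and a KO peak without an overlapping WT peak in 2 (2.52% to 55.6%), against 13.0%. The shares of all genes count peaks anywhere in the window, those at starts included. They also cover genes without H3K27ac at a start, and their windows were shorter at the median. Most of these peaks were weak. Those of Cbx1 were a WT peak upstream of the gene at chr11:96647569-96648884, with a score of 81.08, and a KO peak in an intron at chr11:96665595-96666661, with a score of 70.89. Those of Cbx5 were both WT peaks in introns, at chr15:103032189-103034139 and chr15:103058547-103060343, with scores of 68.62 and 74.75. These 4 peaks stood at or below percentile 9.99 of their lists.

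Atf7ip and Dnmt3a had the higher ones, and they went in opposite directions. Atf7ip had in its introns KO peaks at chr6:136496289-136497385, with a score of 82.47, and at chr6:136501956-136504570, with a score of 421.84, the latter 2615 bp wide and centred 35891 bp from the start. Between them, a peak present in both genotypes scored 63.78 in WT and 213.32 in KO. Nearer to the start, 2 intronic peaks scored 3100 in both. The intronic and the start acetylation of Atf7ip thus moved in different directions, its start peak having the lower score in KO. In Dnmt3a, the WT peak at chr12:3824593-3826107, with a score of 188.13, had no KO counterpart, and an intronic peak found in both genotypes, centred 49375 bp from the start in WT, scored 1549.44 in WT and 473.14 in KO.

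Setdb1 differed in how its peaks were joined. The WT list had 2 peaks, chr3:95158822-95161878 over the start and chr3:95163233-95165826 upstream of it with a score of 1982.8, where the KO list had a single peak of 7481 bp at chr3:95158477-95165957. A KO peak within 1 kb of a start of the neighbour Lass2, a ceramide synthase gene, also reached the window. The WT peak it overlaps did not. Dnmt1 (chr9:20711650-20757317, minus strand) kept its intronic peaks in both genotypes, with scores of 704.72 and 586.34 at a peak centred 7962 bp from the start in WT and of 92.96 and 67.43 farther in. Cbx5 had an intronic peak with scores of 2547.37 and 2112.26, and a peak at another annotated start of the gene with 3100 in both. Cbx3, Suv39h2 (chr2:3373087-3392303, minus strand) and Dnmt3b had no H3K27ac peak other than that of the start.

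The part of each window under H3K27ac summed these differences. It ranged from 3.59% (Dnmt3b) to 38.3% (Trim28) in WT, with a median of 13.8%, and from 3.67% to 39.4% in KO, at the same genes, with a median of 15.6%. Over all protein-coding genes the medians were 5.38% and 5.0%, and over those with a start peak in both 12.4% and 11.6%. The KO share was higher at 6 of 10 genes (26.2% to 87.8%), against 36.0% of those genes, and lower at 4, against 63.9%. That interval includes 36.0%. Some differences in either direction were small, as at Dnmt3b, with 1733 bp covered in WT and 1772 bp in KO, and at Cbx1, with 4427 and 4113 bp. The widest gains were at Setdb1, from 12.9% to 20.3%, and at Atf7ip, from 11.9% to 16.0%, and the widest losses at Cbx5, from 35.8% to 31.0%, and at Suv39h2, from 11.2% to 9.11%. The median difference was 0.29 percentage points, against −0.507 over all genes with both, and the added bases of Setdb1 lay in the joined peak and in the Lass2 peak, neither of which was new in KO.

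**Figure D4:**
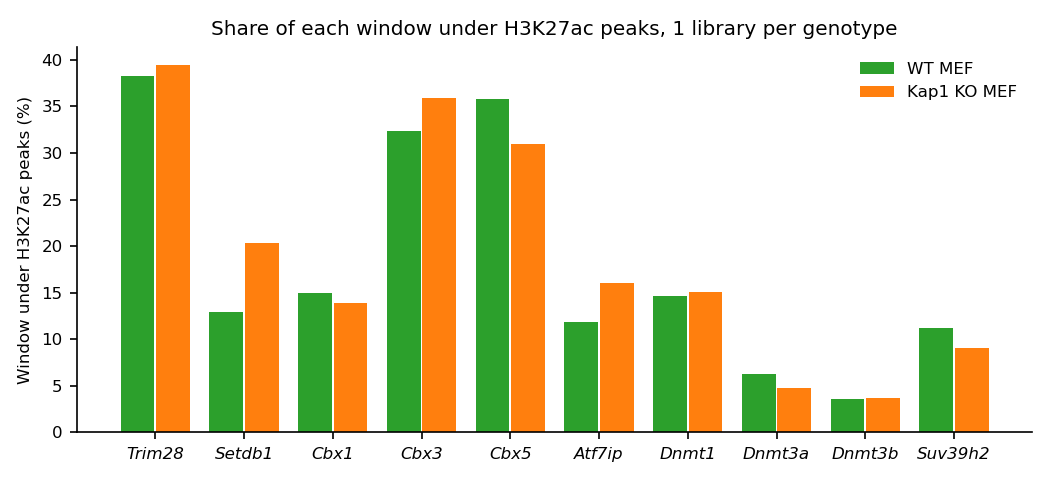
Percent of each gene's window covered by H3K27ac peaks in WT (green) and Kap1 KO (orange) MEFs, 1 library each. Trim28, Cbx3 and Cbx5 stand above 30% in both genotypes and Dnmt3b below 4%.

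No gene of the machinery had an H3K9me3 peak in its window, in WT or in KO MEFs (0 of 10, with an interval up to 30.8%, in each). Of all genes, 14.1% had one in WT and 2.84% in KO, and both of these shares lie inside the interval. The nearest H3K9me3 peak in WT was 18009 bp from Cbx3, 18784 bp from Setdb1 and 23831 bp from Dnmt1. It was 31774 bp from Atf7ip, 33751 bp from Dnmt3b, 60585 bp from Cbx5 and 79867 bp from Suv39h2. Trim28 stood 174038 bp, Cbx1 224684 bp and Dnmt3a 270988 bp away. The scores of these nearest peaks lay between 52.18 and 175.5, on both sides of the list's median of 79.9.

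In Kap1 KO MEFs, the nearest H3K9me3 peak was farther at all 10 genes, from 112549 bp at Atf7ip to 1238330 bp at Dnmt1, with a median of 521283 bp against 47168 bp in WT. The same was true of 87.2% of all genes, whose median distance went from 67983 to 807770 bp, and the KO list was shorter. The larger distance was therefore shared with most genes. For Trim28 it went from 174038 to 1006059 bp, and for Dnmt3a it moved least, from 270988 to 305351 bp.

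**Figure D5:**
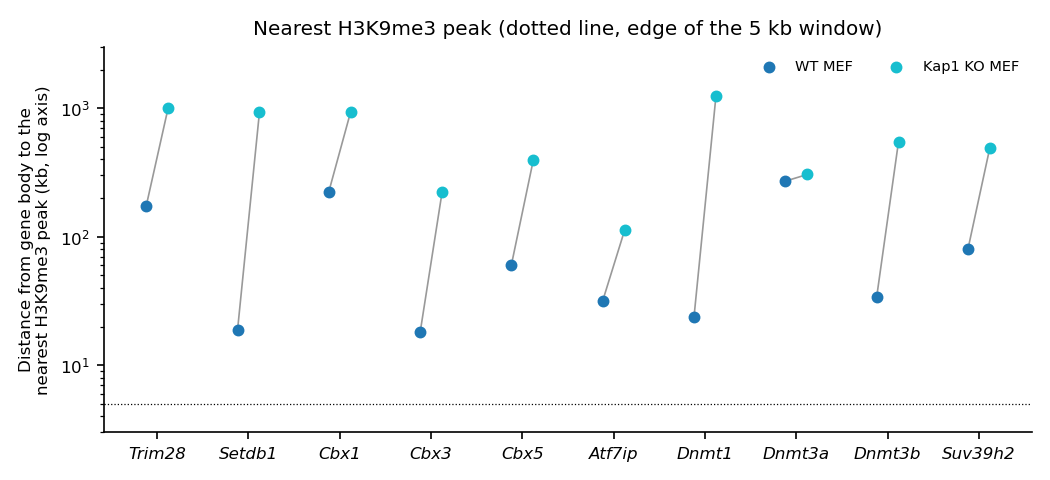
Distance in kb (log axis) from the body of each of the 10 genes to the nearest H3K9me3 peak in WT (dark blue) and Kap1 KO (light blue) MEFs, with a dotted line at the 5 kb edge of the window. All points lie above the line, and all KO points lie above the WT point of the same gene.

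Other genes of H3K9 methylation, of DNA methylation and of the KAP1 complex were counted from a list of 38 names, of which 37 were found in the annotation. A KAP1 peak lay in 18 of the 37 windows, against the 30.7% of all genes given above. The window lengths of these genes were not compared with those of all genes. Within 1 kb of a start, 11 of the 37 had a KAP1 peak, against 18.9% of all genes. Of the genes with H3K27ac at a start in both genotypes, as 34 of the 37 were, 32.3% had one. H3K27ac lay at a start of 35 in WT, against 54.6%, and of 34 in KO, against 53.3%, Sumo3 having a start peak of score 773.91 in WT alone. Entries of the SETDB1 list were found in 3 windows, against 5.47% of all genes, and within 1 kb of a start of 0 genes, against 1.81%. The entry of Ehmt2, which encodes the H3K9 methyltransferase G9a, had a KAP1 score of 761 and lay upstream of the gene. Those of Trim24, which encodes a relative of KAP1, and Phf8, which encodes a histone demethylase, lay within the genes, scoring 502 and 119.

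Of these 37 genes, 3 had H3K9me3 peaks in WT, against 14.1% of all genes, and 0 in KO, against 2.84%. Trim24 had peaks with scores of 70.22 and 109.78, centred 5189 and 5895 bp past the 5′ end of the gene and within 1 kb of another annotated start, and in Hepa 1.6 cells a KAP1 peak of score 105 overlapped both places. Chd4, which encodes the helicase of the NuRD complex, had a peak of score 176.4 within the gene. The window of Hdac2, a histone deacetylase gene, held a peak of score 53.15 beyond the end of the gene, at chr10:36724130-36724495. Of the 34 genes with a start peak in both genotypes, 5 had a lower score in KO, against 35.9% of all such genes, and 0 a higher one, against 5.89%. The rest stood at 3100 in both genotypes, as did 58.2% of all such genes, so no difference could show there. The shares with a lower score are therefore not directly comparable. The ratio was 0.597 at Mbd1 and 0.774 at Chaf1b. It was at most 0.677 at Hdac1, 0.711 at Kdm4c and 0.795 at Kdm4b, where the WT score stood at the ceiling.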

How the data were processed

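Peak lists of KAP1 and SETDB1 in Hepa 1.6 cells and of H3K27ac and H3K9me3 in WT and Kap1 KO MEFs, 1 library each, were used. Of the 18 samples of the series, the other 12 were not analysed here. The authors aligned reads to mm9 (Bowtie 2, sensitive-local) and compared each library with its total input to call peaks (MACS). The submitters' processing notes name Bowtie2 2.2.1 and MACS 1.4. The deposited score of each peak is the value written by the peak caller. A cutoff of 80 is stated, whereas the lowest MEF scores were near 50, and all peaks were kept. Depth is unknown.

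Genes, transcripts and starts were those of GENCODE vM1 on NCBIM37 (mm9), with 0 peaks past a chromosome end. A peak was counted with at least 1 bp in the window, or within 1 kb of any annotated start. Of records with the same name the longest was used, Atf7ip having 2. Scores above 3100 at starts were counted as 3100. Peaks are printed with starts counted from 1.

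Counts were set beside the share of all protein-coding genes under the same rule. No test was run, since each condition had 1 library. The members, the lists of other genes and of markers, and the divergent and H3K27ac-marked comparison sets were chosen with earlier results of these data known. All peaks of KAP1, SETDB1 and H3K9me3 in the windows were described, and for H3K27ac those at starts or in 1 genotype. Other H3K27ac peaks were chosen after their values were seen. Of the other genes, those with a SETDB1 or H3K9me3 entry were named, and Sumo3 and the genes with lower start scores were named after their values were seen. The alternatives changed the window, the overlap, the distance to a start or the scores kept.

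Scripts ran under Python 3.11.15 with pandas 2.3.3, numpy 2.4.6, scipy 1.17.1 and matplotlib 3.10.9. Overlaps were tested on simulated data and were identical to those of bedtools 2.31.1 in all 22367 windows of each list.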

Additional observations from a re-analysis of the deposited data

How the results depend on the processing

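Of 43 recomputed values, 37 kept theirs or stayed within 1.5 times the count, and 6 moved, all of them medians of the percent of the window under H3K27ac. With the gene body alone the median was 12.0% in WT and 16.6% in Kap1 KO, and with 10 kb on both sides 14.1% and 15.3%. With scores of at least 80 it was 14.7% in KO, and with both records of Atf7ip joined, an alternative chosen after seeing the data, 15.3% in KO. The KO median stayed above that of WT in each. The KAP1 count was 3 with the gene body alone, where the peak near Trim28 is lost, and the H3K27ac start count was 9 in KO with the 50% of peaks of highest score. H3K9me3 stayed at 0 under all alternatives run.

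No paired analysis was possible because each condition had 1 library, and for the same reason no run without 1 library was made. Differences between genotypes therefore rest on 1 list each, clone and genotype cannot be told apart, and KAP1 was read in Hepa 1.6 cells but the histone marks in MEFs. Scores at 3100 hide differences, and the depth of the libraries, which sets how many peaks are called, is unknown.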
